A study of Homo sapiens with 8 samples.

Results

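The genes described here are 10 immediate early genes: the AP-1 subunits FOS, FOSB, FOSL1, FOSL2, JUN, JUNB and JUND, the transcription factor EGR1, and the early response genes IER2 and IER3. They were taken by gene name from 17491 genes with a named probe set, and all 10 were measured, each by 1 probe set. Their NCBI Gene identifiers are 2353 for FOS, 2354 for FOSB, 8061 for FOSL1, 2355 for FOSL2, 3725 for JUN, 3726 for JUNB, 3727 for JUND, 1958 for EGR1, 9592 for IER2 and 8870 for IER3. The data came from 8 human expression arrays hybridised with total RNA of whole metastatic lymph nodes, 4 per treatment. Nodes are the tissue that the sample labels name, while the design text of the series speaks of excised melanomas. The host animals were BALB/c nude mice given either doxycycline or its vehicle in their water. Both groups bore SkMel147 tumours, grown under the skin from a human cutaneous melanoma line, in which doxycycline was meant to induce Omomyc. Omomyc is a dominant-negative form of the dimerization domain of MYC. Dosing started once tumours reached about 750 mm3, and nodes were taken 2 days post treatment. The promoter that drives Omomyc, the number of tumour clones, and the age and sex of the mice were not named in the labels. Athymic nude mice retain B cells and myeloid cells, and host RNA entered each hybridisation together with tumour RNA.

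Immediate early genes are transcribed within minutes of a growth factor or stress signal, without new protein synthesis, and their transcripts are short-lived. FOS proteins bind DNA as dimers, mainly with a JUN protein, and the resulting AP-1 factor drives genes of proliferation, invasion and wound repair. In melanoma, mutations that activate ERK signalling keep several of these genes in use, FOSL1 in particular. EGR1 is a zinc finger factor induced through serum response elements, and MYC with its partner MAX binds a different element, the E-box.

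The human promoter windows of EGR1, FOS and JUND are printed here because EGR1 had the largest difference in size between the groups, FOS is the founding AP-1 gene and JUND was the AP-1 gene with the highest positive difference. Each window runs from 250 bases before to 50 bases after the RefSeq start in build GRCh38.p14, on the strand of the gene. They lie at chr5:138465229-138465528 (plus strand), chr14:75278578-75278877 (plus strand) and chr19:18281573-18281872 (minus strand). Capitals mark matches, on either strand, to any motif searched.
EGR1: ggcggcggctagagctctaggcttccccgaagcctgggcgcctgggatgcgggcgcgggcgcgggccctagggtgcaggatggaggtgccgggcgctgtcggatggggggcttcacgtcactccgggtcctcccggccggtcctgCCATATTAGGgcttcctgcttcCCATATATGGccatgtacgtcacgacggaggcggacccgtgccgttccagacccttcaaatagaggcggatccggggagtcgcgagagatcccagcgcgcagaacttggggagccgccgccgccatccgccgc
FOS: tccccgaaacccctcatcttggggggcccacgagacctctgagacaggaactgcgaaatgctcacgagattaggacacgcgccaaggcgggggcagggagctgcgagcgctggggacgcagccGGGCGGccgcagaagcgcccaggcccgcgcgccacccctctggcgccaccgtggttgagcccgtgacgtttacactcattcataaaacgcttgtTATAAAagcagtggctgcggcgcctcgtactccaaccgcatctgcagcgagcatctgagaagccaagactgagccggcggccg
JUND: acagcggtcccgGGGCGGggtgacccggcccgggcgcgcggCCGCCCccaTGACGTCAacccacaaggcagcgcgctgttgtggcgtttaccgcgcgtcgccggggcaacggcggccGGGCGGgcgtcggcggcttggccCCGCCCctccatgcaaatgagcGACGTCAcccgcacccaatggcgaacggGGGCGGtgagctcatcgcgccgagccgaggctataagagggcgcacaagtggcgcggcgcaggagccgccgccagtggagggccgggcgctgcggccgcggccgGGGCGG

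Motifs were searched on both strands in the windows of the 8 genes that the RefSeq table holds, which are FOS, FOSB, FOSL2, JUN, JUNB, JUND, EGR1 and IER2. Each motif's share of all 35116 windows of the same length is given beside the count. Within these windows the CArG box, the core of the serum response element, was found in EGR1 alone. It lay at 105 and 83 bases before the start, and was found in 1.29% of all windows. Both copies read on either strand. Sequence outside the windows was not searched, so a gene without a match to this or another motif may hold one farther away. The TATA box TATAAA lay in FOS, FOSB and JUNB, at 33, 30 and 31 bases before the start, and in 11.5% of all windows. The CRE core TGACGTC lay in JUND alone, from 200 and 199 bases before the start on opposite strands of 1 palindrome and again at 88 bases, and in 3.45% of all windows. The AP-1 site TGACTCA lay in FOSL2 alone (4.95% of all windows), and the SP1 box GGGCGG in FOS, FOSB, FOSL2, JUN, JUND and IER2 (45% of all windows). The MYC E-box CACGTG was in 0 of the 8 windows against 7.26% of all windows, and the EGR core GTGGGCG in 0 of 8 against 9.52%. A match describes letters in a window and no binding was measured.

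Vehicle replicate 1 stood apart from the other arrays before any comparison. Its correlation with the other 7 arrays, taken across genes (these are not independent), averaged 0.941, whereas the other 7 correlated with each other at 0.972 to 0.983. The differences of single genes below are therefore given with and without it. Values are log2 expression after RMA, which fits the arrays to a common distribution, and the array medians lay between 5.07 and 5.12. The number of arrays limits the precision, and the human probes may read mouse transcripts to an extent that was not measured. Of the markers of melanoma, 9 of 10 were measured. The pigmentation genes TYR, TYRP1, GPR143 and SLC45A2 were below the array medians on all 8 arrays, so 4 of the 9 lay below them, and of the 7 measured B lymphocyte markers 2, MS4A1 and CR2, did so on all 8 arrays. PMEL, a melanosome protein, lay between 5.17 and 6.08, and SOX10, a neural crest factor, between 5.52 and 5.92. The B cell receptor chain CD79A lay between 7.09 and 7.46. These 3 genes were above the array medians on all 8 arrays, and MLANA, a melanocyte antigen, was above them on 7 of 8 arrays, with the exception of vehicle replicate 1 at 4.60.

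None of the 10 genes passed the comparison of doxycycline with vehicle, which asks how the nodes differed 2 days post treatment. EGR1, JUN, IER3 and FOSL1 had the largest differences in size, from -0.40 to -0.30 on the log2 scale, while FOS, FOSB, FOSL2 and JUNB differed by less than 0.05. JUND and IER2 were the genes with a positive difference, 0.17 and 0.16. With limma's Benjamini-Hochberg adjusted p over all genes, 0 of 10 were called at the threshold of 0.05, against 0% of all 17491 genes, and at an unadjusted p under 0.05 there were 0 of 10, against 3.8%. The groups overlapped for all 10 genes, whereas 2.62% of all genes had groups that did not overlap. The 10 genes overlapped without vehicle replicate 1 as well, where 5.67% of all genes did not. The differences of 8 of the 10 genes were below 0, against 44.5% of all genes, with a median of -0.04 over the 10 and 0.02 over all genes. When vehicle replicate 1 was left out, 0 of 10 passed against 0% of all genes, 1 had an unadjusted p under 0.05 against 4.91%, 8 were again below 0 against 49.2% of all genes, and the median was -0.11 against 0.003 over all genes. In whole nodes, fewer cells of a type and less RNA per cell cannot be told apart.

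**Figure D1:**
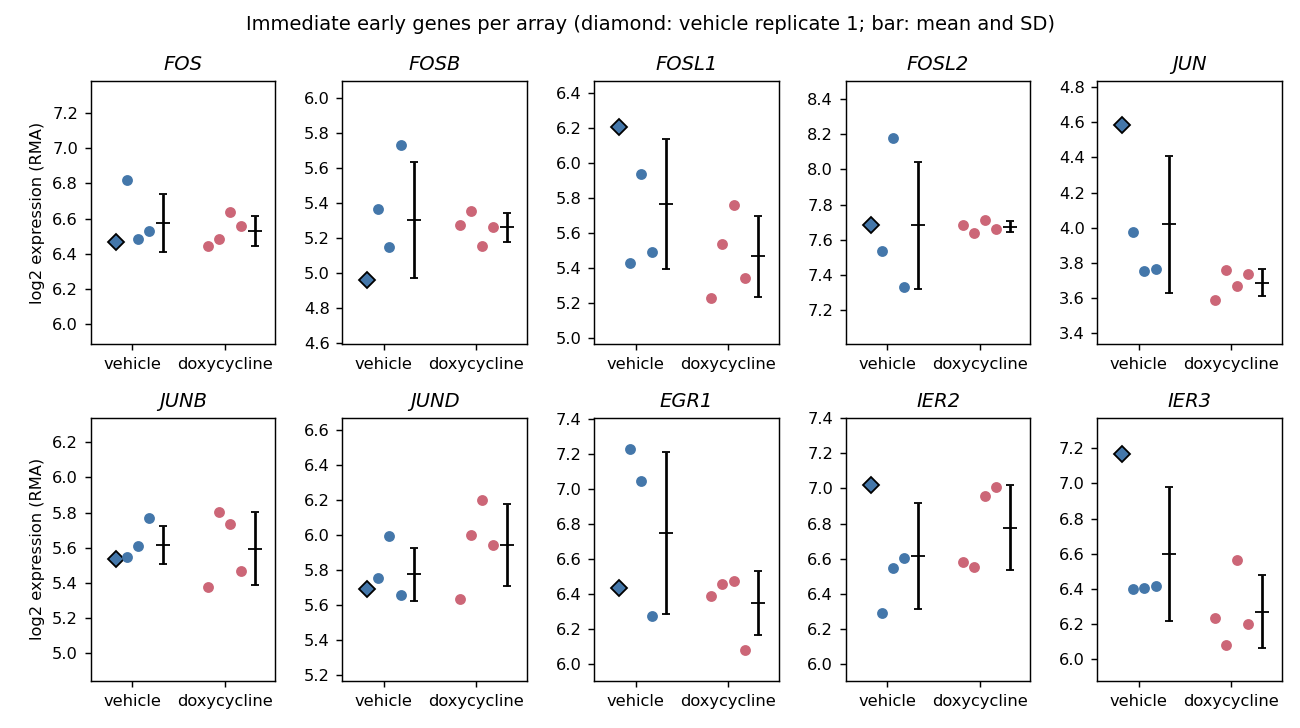
Log2 expression (vertical axis, RMA values) of the 10 genes on each array, with vehicle in blue and doxycycline in red, 4 arrays per group. Diamonds mark vehicle replicate 1, and black bars give the mean and SD of each group. Every panel spans 1.5 log2 units. The vehicle and doxycycline points overlap in every panel, and vehicle replicate 1 is the highest point for FOSL1, JUN, IER2 and IER3.

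FOS, the founding AP-1 subunit, was nearly level across the nodes. It was at 6.47, 6.82, 6.48 and 6.53 on vehicle replicates 1 to 4 and at 6.45, 6.48, 6.64 and 6.56 on doxycycline replicates 1 to 4. Vehicle replicate 2 was the highest array and the other 3 vehicle arrays lay inside the doxycycline range. The difference was -0.04 ± 0.12 (SE, 95% confidence interval -0.32 to 0.23), which did not pass (limma adjusted p = 0.991). The interval corresponds to a ratio of doxycycline over vehicle between 0.804 and 1.17. Leaving out vehicle replicate 1 gave a difference of -0.08 ± 0.13 (SE), and without vehicle replicate 2 it turned to 0.04.

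FOSB, a close relative of FOS with a similarly transient transcript, was at 4.96, 5.36, 5.15 and 5.73 on vehicle replicates 1 to 4. With doxycycline it was at 5.27, 5.35, 5.15 and 5.26, so the vehicle arrays held both the lowest and the highest value. The difference was -0.04 ± 0.16 (SE; limma adjusted p = 0.994). Leaving out vehicle replicate 1, its lowest array, gave -0.15 ± 0.15 (SE), and without vehicle replicate 4, its highest, it turned to 0.10.

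FOSL1, which encodes FRA1 and is known as a readout of ERK activity in melanoma, had its 2 highest values in vehicle nodes. It was at 6.20, 5.43, 5.94 and 5.49 on vehicle replicates 1 to 4 and at 5.23, 5.54, 5.76 and 5.34 with doxycycline. Vehicle replicates 1 and 3 lay above every doxycycline array, and vehicle replicates 2 and 4 lay among them. The difference was -0.30 ± 0.19 (SE, 95% confidence interval -0.70 to 0.11), which did not pass (limma adjusted p = 0.987). On the other 7 arrays it was -0.15 ± 0.17 (SE).

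FOSL2, which encodes FRA2, a FOS family protein with more sustained induction, was at 7.68, 7.53, 8.18 and 7.33 on vehicle replicates 1 to 4 and at 7.68, 7.64, 7.71 and 7.66 with doxycycline. The 4 doxycycline arrays lay close together inside the vehicle range. The SD was 0.36 with vehicle and 0.03 with doxycycline (n = 4 each), and the difference in means was -0.01 ± 0.17 (SE; limma adjusted p = 0.998). It stayed at -0.0062 without vehicle replicate 1, turned to 0.16 without vehicle replicate 3, the highest array, and was -0.12 without vehicle replicate 4, the lowest.

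JUN, a partner of the FOS proteins that can also pair with itself, was at 4.59, 3.97, 3.75 and 3.76 on vehicle replicates 1 to 4. It was at 3.59, 3.76, 3.66 and 3.74 with doxycycline, and all 8 values lay below the array medians. Vehicle replicates 1 and 2 were above every doxycycline array, and vehicle replicates 3 and 4 were level with the highest of them. The difference was -0.33 ± 0.18 (SE, 95% confidence interval -0.71 to 0.05; limma adjusted p = 0.987). On removal of vehicle replicate 1, which exceeded the mean of the other 7 arrays by 0.84, it was -0.14 ± 0.13 (SE).

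JUNB, a JUN paralogue that restrains as well as activates AP-1 targets, showed no separation. It was at 5.54, 5.55, 5.61 and 5.77 with vehicle and at 5.38, 5.81, 5.73 and 5.47 with doxycycline. The doxycycline arrays held both the lowest and the highest value. The difference was -0.02 ± 0.13 (SE; limma adjusted p = 0.995), or -0.05 ± 0.14 (SE) without vehicle replicate 1, and leaving out single arrays moved it between -0.09 and 0.05.

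JUND, the JUN paralogue expressed in resting cells, differed in the other direction. It was at 5.69, 5.76, 5.99 and 5.66 on vehicle replicates 1 to 4 and at 5.63, 5.996, 6.20 and 5.94 with doxycycline. Doxycycline replicate 1 was the lowest of all arrays, while doxycycline replicates 2 and 3 were above every vehicle array. The difference was 0.17 ± 0.14 (SE, 95% confidence interval -0.15 to 0.48), which did not pass (limma adjusted p = 0.987). It was 0.14 ± 0.15 (SE) without vehicle replicate 1, 0.08 without doxycycline replicate 3 and 0.27 without doxycycline replicate 1.

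EGR1, whose promoter window holds the CArG boxes printed above, had the widest range of the 10 genes. It was at 6.44, 7.23, 7.05 and 6.28 on vehicle replicates 1 to 4 and at 6.39, 6.46, 6.48 and 6.08 with doxycycline. Vehicle replicates 2 and 3 stood above the rest, and replicates 1 and 4 of that group fell inside the doxycycline range. The difference was -0.40 ± 0.20 (SE, 95% confidence interval -0.84 to 0.05), a ratio of 0.76 with an interval from 0.559 to 1.03, which missed the threshold (limma unadjusted p = 0.0760, adjusted p = 0.987). Without vehicle replicate 1 it was -0.50 ± 0.20 (SE, 95% confidence interval -0.93 to -0.07), with a limma unadjusted p of 0.0248 and an adjusted p of 0.962. In that comparison 2.25% of all genes were lower at an unadjusted p under 0.05. Without vehicle replicate 2 the difference was -0.24, and without vehicle replicate 4 it was -0.55.

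The genes whose values followed EGR1 most closely over the 8 arrays were NSG2 (r = 0.983), B3GNT2 (0.967), ASTN1 (0.966), DUSP5 (0.964) and PGC (0.963), by Pearson correlation among all other genes, as a description. On the other 7 arrays their correlations lay between 0.964 and 0.990. DUSP5, a nuclear phosphatase that acts on ERK, was at 5.81, 6.54, 6.23 and 5.50 on vehicle replicates 1 to 4 and at 5.70, 5.84, 5.54 and 5.29 with doxycycline. Like EGR1, it was highest on vehicle replicates 2 and 3. Since DUSP5 was selected by its correlation with EGR1, neither this nor its difference is separate support. Its difference was -0.43 ± 0.21 (SE; limma adjusted p = 0.987), and -0.50 ± 0.21 (SE) without vehicle replicate 1. The other 4 genes spanned less than 1 log2 unit over the arrays, and 21 genes reached a correlation of 0.9 with EGR1. NSG2, B3GNT2 and ASTN1 lay below the array medians on all 8 arrays, reaching at most 4.19, 3.76 and 3.99.

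IER2, a nuclear protein of the immediate early response, was at 7.02, 6.29, 6.55 and 6.60 on vehicle replicates 1 to 4 and at 6.58, 6.55, 6.96 and 7.01 with doxycycline. Vehicle replicate 1 and doxycycline replicates 3 and 4 were high and the other 5 arrays low. The difference was 0.16 ± 0.17 (SE, 95% confidence interval -0.21 to 0.54; limma adjusted p = 0.987). On the other 7 arrays it was 0.30 ± 0.15 (SE, 95% confidence interval -0.03 to 0.63; limma adjusted p = 0.962), and it was 0.05 without vehicle replicate 2, 0.10 without doxycycline replicate 3 and 0.09 without doxycycline replicate 4.

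IER3, a stress-induced regulator of survival and ERK signalling, was at 7.17, 6.40, 6.41 and 6.42 on vehicle replicates 1 to 4. It was at 6.23, 6.08, 6.56 and 6.20 with doxycycline. Vehicle replicate 1 stood far above the 3 other vehicle arrays, which lay within 0.02 of each other. Those 3 were below doxycycline replicate 3 and above doxycycline replicates 1, 2 and 4. The difference was -0.33 ± 0.19 (SE, 95% confidence interval -0.73 to 0.08; limma adjusted p = 0.987), and -0.14 ± 0.14 (SE) without vehicle replicate 1.

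**Figure D2:**
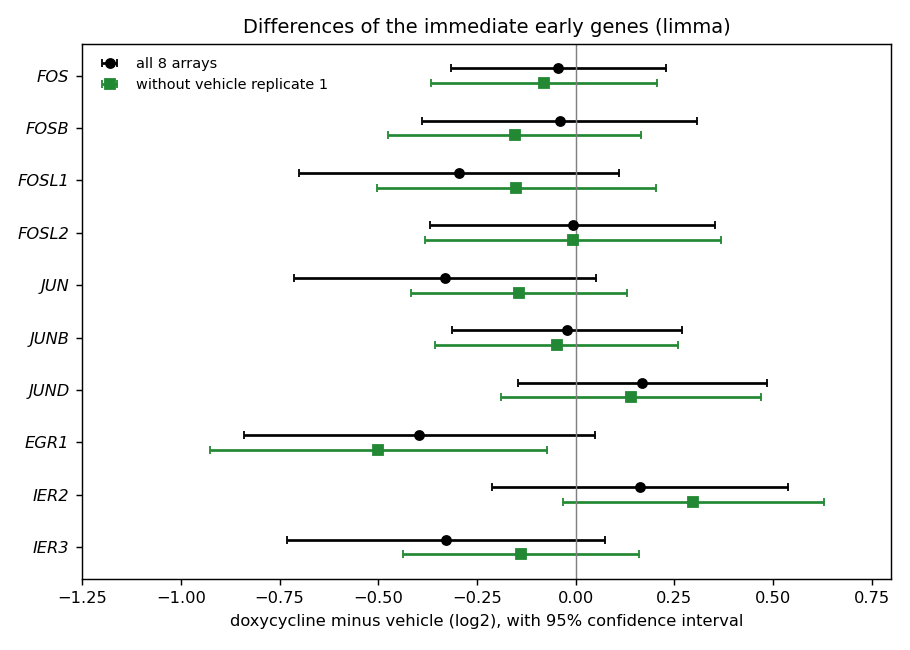
Difference of each gene, doxycycline minus vehicle, on the log2 scale (horizontal axis) with its 95% confidence interval from limma, for all 8 arrays (black circles) and without vehicle replicate 1 (green squares). Every interval of the 8-array fit includes 0. Without vehicle replicate 1 the EGR1 interval runs from -0.93 to -0.07, but its adjusted p is 0.962.

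The spread of the genes within their groups differed widely. The residual SD was 0.13 for FOS, below that of most genes (percentile 13.8), 0.35 for EGR1 (percentile 89.9), 0.31 for FOSL1 (83.1) and 0.31 for IER3 (82.7). The median over all genes was 0.21. Without vehicle replicate 1, EGR1 lay at percentile 94.8 and FOSL2 at 84.6, whereas JUN lay at 7.98 and IER3 at 34.6, so the JUN and IER3 spread rested on that array. The SD was larger with vehicle than with doxycycline for 8 of the 10 genes, against 65.7% of all genes, and for 6 of 10 without vehicle replicate 1, against 54%. Vehicle replicate 1 was the highest array for 4 of the 10 genes, against 15.2% of all genes. Doxycycline replicate 1 was the lowest for 5, which were FOS, FOSL1, JUN, JUNB and JUND, against 8.3% of all genes.

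**Figure D3:**
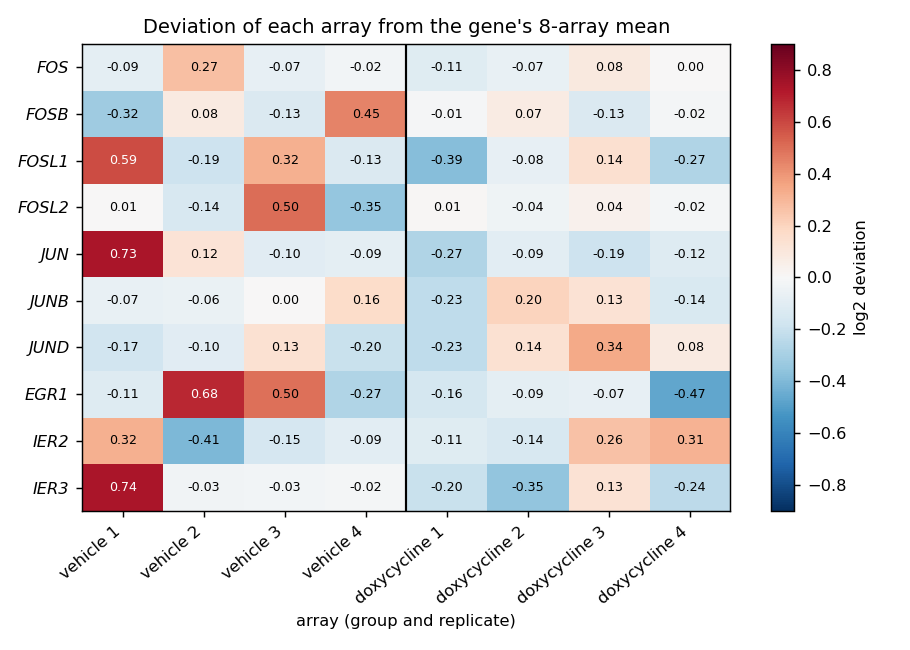
Deviation of each array (columns, group and replicate) from the gene's mean over the 8 arrays, in log2 units, for the 10 genes (rows); red is above and blue below the mean. IER3, JUN and FOSL1 are at 0.74, 0.73 and 0.59 on vehicle replicate 1, and EGR1 is at 0.68 and 0.50 on vehicle replicates 2 and 3, while FOS and JUNB stay within 0.3 of 0.

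No relation of FOS to the other genes from node to node passed. FOS was compared with each of the other 9 over the 8 arrays, and 0 of 9 pairs passed in an exact two-sided permutation test with Benjamini-Hochberg adjustment over the 9. The highest Pearson correlation was with EGR1 (Pearson r = 0.53, exact permutation p = 0.174, adjusted p = 0.975; Spearman rho = 0.29, exact permutation p = 0.501, adjusted p = 0.892). By rank the highest was with JUND (rho = 0.45, exact permutation p = 0.267, adjusted p = 0.892). The EGR1 Pearson value was -0.49 without vehicle replicate 2 and doxycycline replicate 3, the arrays farthest from the FOS median, and -0.25 without vehicle replicate 2 alone, so it rested on that array. The lowest Pearson value was with IER2 (r = -0.34, exact permutation p = 0.441, adjusted p = 0.975; rho = -0.17, exact permutation p = 0.703, adjusted p = 0.892). The IER2 correlation turned to 0.34 without the same 2 arrays. Within deviations from the group means the EGR1 value was 0.52 (exact permutation p = 0.190, adjusted p = 0.788). JUN, a dimer partner of FOS, had r = -0.01 with FOS, and r = 0.75 without vehicle replicate 1 (exact permutation p = 0.0774, adjusted p = 0.696). The genes most like FOS over the 8 arrays were SURF2 (r = 0.962), HEY2 (0.960), WTIP (0.953), OR4D9 (0.953) and SCN3A (0.946), as a description, and 38 genes reached 0.9. HEY2, OR4D9 and SCN3A lay below the array medians on all 8 arrays, reaching at most 3.88, 4.07 and 3.98. FOS itself spanned 0.38 log2 units.

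None of the other AP-1 and bZIP partners passed. Of 14 listed genes, 11 were measured and 0 passed in either direction, with 7 below 0, 4 above 0 and a median of -0.02. Without vehicle replicate 1, 9 were below 0, 2 above 0 and the median was -0.08. Of all genes, 44.5% were below 0, or 49.2% without vehicle replicate 1. This list and those below were chosen with earlier results of these data known, so their counts are no separate evidence. At a limma unadjusted p under 0.05 there were 0 of 11, against 3.8% of all genes. Leaving out vehicle replicate 1 gave 1, against 4.91%. MAF, a large MAF factor, was at 5.10, 6.04, 5.80 and 5.34 on vehicle replicates 1 to 4 and between 5.31 and 5.36 with doxycycline. Its vehicle arrays lay on both sides of the narrow doxycycline range, with a difference of -0.24 ± 0.18 (SE). That was -0.40 ± 0.16 (SE) without vehicle replicate 1, its lowest array, and -0.09 without vehicle replicate 2, its highest. BATF, an AP-1 factor of lymphocytes, differed by -0.15 ± 0.15 (SE), or -0.13 ± 0.16 (SE) without vehicle replicate 1. It was -0.05 without either vehicle replicate 2 or doxycycline replicate 3, and -0.24 without vehicle replicate 3. ATF2, a partner of JUN, differed by -0.10 ± 0.19 (SE), or -0.08 ± 0.20 (SE) without vehicle replicate 1, and with single arrays left out it lay between -0.28 (doxycycline replicate 4) and 0.05 (doxycycline replicate 1). MAFA differed by 0.24 ± 0.15 (SE), or 0.15 ± 0.14 (SE) without vehicle replicate 1.

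Of 45 other immediate early genes, 42 were measured and 0 passed in either direction (limma, adjusted over all genes). At an unadjusted p under 0.05 there were 4 of 42, against 3.8% of all genes, and 4 without vehicle replicate 1, against 4.91%. Of the 42, 28 were below 0, against 44.5% of all genes, and 14 above 0, with a median of -0.06. Without vehicle replicate 1, 30 were below 0, against 49.2% of all genes, and the median was -0.12. ERRFI1 had the lowest difference of the list, -1.42 on all 8 arrays, with a larger p than CCN1. Its value without vehicle replicate 1 is not given here. CCN1, a secreted matricellular protein, had the smallest p. It was at 7.68, 7.35, 7.39 and 7.19 on vehicle replicates 1 to 4 and at 6.44, 6.88, 6.998 and 6.59 with doxycycline. These groups did not overlap, against 2.62% of all genes, and CCN1 was named for its small p. The difference was -0.68 ± 0.16 (SE; limma adjusted p = 0.987), or -0.59 ± 0.15 (SE) without vehicle replicate 1. NFKBIA, the inhibitor of NF-kB, was at 6.46, 6.89, 6.45 and 6.19 with vehicle and at 6.04, 6.10, 6.08 and 6.23 with doxycycline, where replicate 4 alone reached into the vehicle range. Its difference was -0.39 ± 0.15 (SE), -0.40 ± 0.16 (SE) without vehicle replicate 1 and -0.25 without vehicle replicate 2, its highest array. PHLDA1 differed by -0.48 ± 0.19 (SE), which was -0.28 ± 0.15 (SE) without vehicle replicate 1, its highest array. IER5L differed in the opposite direction, by 0.25 ± 0.13 (SE), or 0.16 ± 0.13 (SE) without vehicle replicate 1, its lowest array. Its groups did not overlap either, since the highest vehicle array was at 6.06 and the lowest doxycycline array at 6.08.

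Of 31 kinases and transcription factors upstream of these genes, 22 were measured and 0 passed. The list had 13 above 0, 9 below 0, against 44.5% of all genes, and a median of 0.05, or 0.003 without vehicle replicate 1. At a limma unadjusted p under 0.05 there was 1 of 22, against 3.8% of all genes. Leaving out vehicle replicate 1 gave 2, against 4.91%. MAPK8, the JUN kinase JNK1, was at 6.31, 5.53, 5.46 and 5.93 on vehicle replicates 1 to 4 and at 6.30, 6.27, 6.23 and 6.15 with doxycycline. Vehicle replicate 1 was level with the doxycycline arrays and the other 3 vehicle arrays were below them. The difference was 0.43 ± 0.18 (SE; limma adjusted p = 0.987), or 0.60 ± 0.14 (SE; limma adjusted p = 0.962) without vehicle replicate 1. RPS6KA2 and RPS6KA5, kinases downstream of ERK, differed by 0.26 ± 0.15 (SE) and 0.23 ± 0.15 (SE), and by 0.20 ± 0.16 (SE) and 0.24 ± 0.16 (SE) without vehicle replicate 1. RPS6KA2 was at 0.14 without doxycycline replicate 3, its highest array, and RPS6KA5 at 0.36 without doxycycline replicate 1, its lowest. MRTFA, a coactivator of the serum response factor, differed by -0.34 ± 0.16 (SE), -0.44 ± 0.15 (SE) without vehicle replicate 1 and -0.22 without vehicle replicate 2.

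Of 30 genes described as AP-1 targets, 29 were measured and 0 passed, with 20 below 0, against 44.5% of all genes, and a median of -0.10. At a limma unadjusted p under 0.05 there were 4 of 29, against 3.8% of all genes. Leaving out vehicle replicate 1 gave 3, against 4.91%. Without vehicle replicate 1, 13 were below 0, against 49.2% of all genes, 16 were above 0 and the median was 0.007. On that array the list averaged 0.54 above the 8-array mean, while the other 7 arrays lay between -0.16 and 0.04. CCND1, the cyclin D1 gene, was at 7.38, 5.74, 5.28 and 5.91 on vehicle replicates 1 to 4 and at 5.38, 5.20, 5.08 and 4.71 with doxycycline. Its difference of -0.99 ± 0.35 (SE) was -0.55 ± 0.18 (SE) without vehicle replicate 1. CXCL8, the neutrophil chemokine interleukin-8, was high on vehicle replicates 1 and 4, at 6.83 and 6.27, against 4.58 and 4.79 on vehicle replicates 2 and 3 and 4.41 to 4.73 with doxycycline. Its difference of -1.02 ± 0.41 (SE) was -0.62 ± 0.30 (SE) without vehicle replicate 1. EZR, a membrane linker protein, differed by -0.62 ± 0.24 (SE), or -0.32 ± 0.13 (SE) without vehicle replicate 1. The EZR groups did not overlap, against 2.62% of all genes, and EZR was named for its small p. HMOX1, the haem oxygenase gene, differed in the opposite direction, by 0.26 ± 0.12 (SE), or 0.20 ± 0.13 (SE) without vehicle replicate 1. SPP1 had the highest difference of the list, 0.41 on all 8 arrays, with a larger p than HMOX1. Its value without vehicle replicate 1 is not given here.

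**Figure D4:**
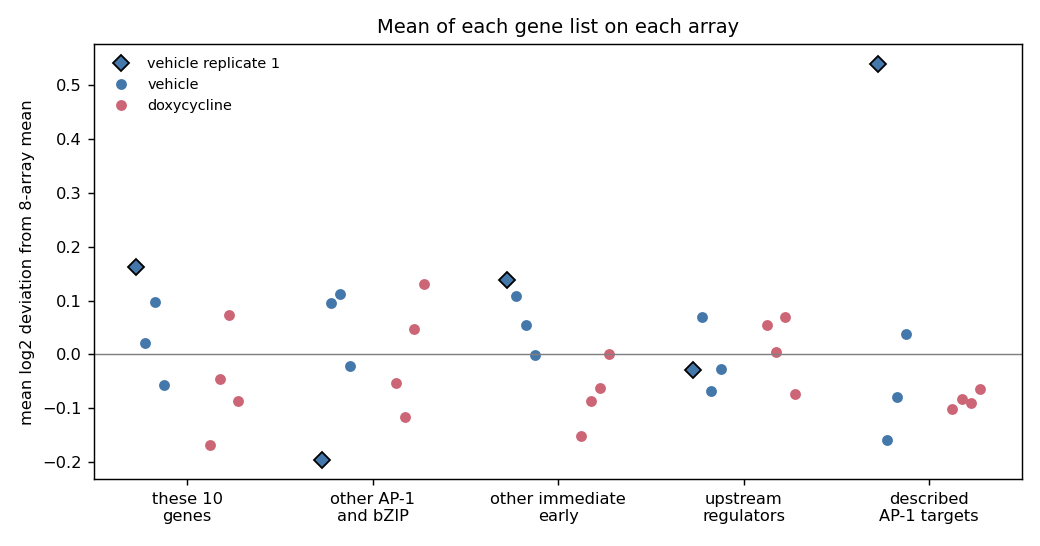
Mean log2 deviation from the 8-array mean (vertical axis) of the 10 genes described here and of 4 further gene lists (horizontal axis), 1 point per array, with vehicle in blue, doxycycline in red and vehicle replicate 1 as a diamond. Vehicle replicate 1 is at 0.54 for the AP-1 targets and at -0.20 for the other AP-1 and bZIP genes, and the groups overlap in every list; for the other immediate early genes they meet at 0, where vehicle replicate 4 (-0.00020) and doxycycline replicate 4 (0.00018) lie.

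No marker of any cell type listed passed in limma. The summed log2 level of the 8 adipocyte markers, 7 of which had a difference above 0, was 41.6 to 44.1 with vehicle and 44.7 to 46.9 with doxycycline. The 10 macrophage and dendritic markers, 7 above 0, summed to 54.63 to 55.28 and 55.29 to 56.49. These were the lists whose groups did not overlap, and no share over other gene lists was computed beside them. The macrophage and dendritic groups nearly met, with a mean of at most 5.528 with vehicle and at least 5.529 with doxycycline. By their means over the arrays, 4 of the 8 adipocyte and 3 of the 10 macrophage and dendritic markers lay below the array medians. The 8 measured skeletal muscle markers, all above 0, summed to 47.0 to 53.8 and 48.6 to 56.5, which overlapped. The 7 measured B lymphocyte markers, 5 above 0, summed to 41.9 to 44.0 and 43.3 to 44.5, and the 9 melanoma markers, 7 above 0, to 41.7 to 44.4 and 43.8 to 44.7. The granulocyte list had 4 of 6 markers below 0 (median -0.12) and the keratinocyte list 3 of 5 (median -0.05). Above 0 were 5 of 8 T lymphocyte markers, 7 of 9 fibroblast markers and 6 of 9 endothelial markers, with medians of 0.05, 0.11 and 0.10, and the groups of these 5 lists overlapped. Every value on these arrays was 2.29 or higher, so no marker could be listed at 0, and signal over background was not assessed. On vehicle replicate 1 the mean of the melanoma markers was 4.63, against 4.80 to 4.96 on the other 7 arrays. The part of these cell types in the values of the 10 genes was not tested.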

How the data were processed

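Expression was measured in 8 lymph node samples, 1 array each, grouped by the sample titles as 4 vehicle and 4 doxycycline. Per the submitters' processing notes, the authors deposited values from RMA, which corrects background, normalizes between arrays and summarises probes. That the deposited values are log2 was read from this method and from their range, 2.29 to 13.1, and is not stated in the labels. No label names the version or a genome build. Signal over background was not assessed. Of 18565 probe sets, 17509 had 1 gene symbol, 0 several and 1056 none. All 17509 gene identifiers matched RefSeq. The probe set with the highest mean over the arrays stood for each of 17491 genes, and each of the 10 genes had 1.

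Differences, doxycycline minus vehicle, were fitted in limma 3.58.1 (R 4.3.3; lmFit and eBayes, no covariates) over all genes, two-sided, with Benjamini-Hochberg adjustment and a threshold of 0.05. The fit was tested on simulated data. Correlations with FOS used exact permutation of 8 arrays in numpy 2.4.6. Figures were drawn with matplotlib 3.10.9. The labels call the samples biological replicas. Each fit was repeated with a replicate block, with medians centred, after quantile or cyclic loess normalization, without the dimmest 25% or 50% of genes, with mean probe sets, another variance model, array weights or all probe sets, at a threshold of 0.1 and with each array left out.

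Named genes were the 10 genes, for each list up to 3 with the smallest p in the direction of the list's median and 1 the other way, and the 5 most like FOS and EGR1. ERRFI1 and SPP1 were named for the lowest and the highest difference of their lists. PMEL, SOX10 and CD79A, and the per-array values of DUSP5, were picked after values were seen. The 10 genes and the lists were chosen with earlier results of these data known. Promoter windows come from RefSeq, and motifs were set with the lists.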

Additional observations from a re-analysis of the deposited data

Results flagged for a closer look

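Among the 10 genes, IER3 had 1 value far from the others of its group. On vehicle replicate 1 it reached 7.17, against 6.40 to 6.42 on the remaining 3 arrays of the group. Among the other named genes, EZR was at 5.84 on vehicle replicate 1 against 4.58 to 4.68 on the other vehicle arrays. IER5L was at 5.69 on vehicle replicate 1 against 6.02 to 6.06. MRTFA was at 5.32 on doxycycline replicate 4 against 5.58 to 5.61 on the other doxycycline arrays. Chance gives such a gap in about 1 in 20 groups, and 52 groups of 4 arrays were examined, 20 of them for the 10 genes.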

How the results depend on the processing

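Of the 10 genes, 0 were called under each of the 19 alternatives, with the replicate number as a block (0 called, smallest adjusted p 0.981 in limma) and at a threshold of 0.1. The labels do not say whether the replicate numbers pair the samples. Deviations of same-numbered arrays correlated at -0.05, 0.15, 0.09 and 0.003, with no differently numbered pairs computed beside them. The block changed no call, which cannot decide the question, since 0 were called with or without it. The other 4 lists also stayed at 0 calls. The median difference of the 10 genes lay between -0.11 and -0.03. EGR1, JUN, FOSL1, IER3, JUND and IER2 kept their sign under every alternative that could be fitted. JUN and RPS6KA5 have no value without the dimmest 25% or 50% of genes, since they fall among them. EZR has none without the dimmest 50%. The FOSL2 difference turned to 0.0665 with array weights. With single arrays left out, FOS ranged from -0.0798 to 0.0390, FOSB from -0.15 to 0.10, FOSL2 from -0.12 to 0.16, JUNB from -0.0912 to 0.0518 and ATF2 from -0.28 to 0.0460. Of correlations with FOS, JUN turned to 0.0861 and IER3 to 0.0316 with array medians centred, and EGR1 to -0.49 and IER2 to 0.34 without the 2 arrays farthest from the FOS median. With single arrays left out they ranged from -0.30 to 0.75 for JUN, -0.21 to 0.39 for JUNB, -0.0523 to 0.68 for JUND, -0.25 to 0.78 for EGR1, -0.51 to 0.51 for IER2 and -0.16 to 0.46 for IER3.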
